A study of Mus musculus with 68 samples.

Results

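The neurons described here are single dopamine (DA) neurons of the mouse ventral tegmental area (VTA), grouped by how many sequencing counts they carried for Aldh1a1, a gene that divides midbrain DA neurons into subtypes. Of 68 cells, 45 had an Aldh1a1 count of 10 or more and are called cells with Aldh1a1, 18 had a count of 0 and are called cells without, and 5 with a count from 1 to 9 were set aside, so that 63 cells were grouped. All cells came from mice aged 12 months. The 3xTg mice were homozygous for human transgenes that include APP Swe and Tau P301L, which carry mutations linked to familial dementia, and the WT mice were a non-transgenic line of the same mixed strain, C57BL/6;129×1/SvJ;129S1/Sv, with males and females in both. Each cell was recorded by patch clamp in a brain slice, and its contents were then drawn into the pipette and sequenced (Patch-seq). In WT, 26 of 35 cells were with and 8 were without. In 3xTg, 19 of 33 cells were with and 10 were without.

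Aldh1a1 encodes a cytosolic aldehyde dehydrogenase that makes retinoic acid from retinaldehyde and clears the reactive aldehyde left when monoamine oxidase breaks down dopamine. In the midbrain it is known as a marker of ventral-tier neurons of the substantia nigra and of part of the VTA, and it has also been proposed as an unusual route to the transmitter GABA. Other genes that separate DA neuron subtypes include Anxa1, Sox6, Lmo3 and Ndnf on the ventral-tier side, and Otx2, Calb1, Grp, Neurod6, Lpl and Slc17a6 on the dorsal and VTA side.

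Which mouse a cell came from is not among the labels. Each genotype therefore counts as a single sample whose cells are not replicates, and no test, standard error or p-value is given for any difference. Levels are counts per 1000000 counts of the cell (CPM), differences are with minus without of the mean log2(CPM + 1) over cells, and each SD is a spread between cells. A difference "relative to the median gene" has the median over all 10847 genes compared in that genotype taken off. A gene was kept if at least 25% of the 63 grouped cells had a count for it, and it is called higher or lower where its relative difference reached 1 on the log2 scale. WT and 3xTg cells share no library, so the same gene seen in both is the only repeat these data hold.

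Aldh1a1 lies on chromosome 19 with a near copy beside it. In mm10, the files place Aldh1a1 at chr19:20601982-20643462 on the plus strand (gene ID 11668) and Aldh1a7, a closely related dehydrogenase, at chr19:20692953-20727556 on the minus strand (gene ID 26358), 49491 bases away. Anxa1, which encodes the phospholipid-binding protein annexin A1, lies on the other side at chr19:20373434-20390671 on the minus strand, 211311 bases away. The coding sequences of Aldh1a1 and Aldh1a7 are both 1503 bases long and are 91.6% identical, and their GENCODE M21 transcripts (2053 and 2066 bases) are 88.7% identical. Their first 90 coding bases are shown as an example of how alike the genes are, although a read can fall anywhere along the transcript. These bases run over exons 1 and 2 of 13 in each gene, at chr19:20602012-20610936 (plus) for Aldh1a1 and chr19:20727039-20727512 (minus) for Aldh1a7 in GRCm38, and capitals mark the 5 bases at which the genes differ.
Aldh1a1: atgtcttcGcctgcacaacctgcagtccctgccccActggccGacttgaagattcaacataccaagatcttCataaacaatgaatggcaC
Aldh1a7: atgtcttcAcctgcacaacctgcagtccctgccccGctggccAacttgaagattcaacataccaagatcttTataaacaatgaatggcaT

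The alignment allowed reads with 90% identity, after 5 bases were trimmed from each end of a 100-base read. Of 1980 windows of 90 bases along the aligned transcripts, 1078 (54.4%) were at least 90% identical between the genes, the median window was 91.1% identical and 17 were identical. The deposited counts can be fractions, and how fractions were assigned is not given in the sources used here. Counts that were not whole made up 84% of the 50 Aldh1a1 values above 0 and 86.7% of the 45 Aldh1a7 values, against 55.3% over all genes. The counts of both genes are uncertain to the extent that their reads were shared, which was not tested.

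The promoters of the 2 genes are also alike, and are shown because both genes were counted in the same cells. RefSeq (GRCm38.p6) gives the 100 bases before the Aldh1a1 start as chr19:20601868-20601967 on the plus strand and those before the Aldh1a7 start as chr19:20727557-20727656 on the minus strand. They are 94% identical, and capitals mark the 6 bases that differ.
Aldh1a1: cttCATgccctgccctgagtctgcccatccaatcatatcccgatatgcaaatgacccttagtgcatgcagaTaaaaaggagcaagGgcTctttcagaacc
Aldh1a7: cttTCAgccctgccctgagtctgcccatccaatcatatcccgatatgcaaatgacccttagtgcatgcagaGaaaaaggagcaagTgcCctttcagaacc

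Both stretches hold CCAAT and the octamer ATGCAAAT, with no base different inside either. On both strands of the 250 bases before each start, CCAAT was found in 33.8% of 32851 mouse promoters and ATGCAAAT in 1.60%. The letters TAATCC (the bicoid type bound by Pitx3 and Otx2, held by 6.25% of promoters) and AAGGTCA (bound by Nr4a2, held by 4.08%) were absent from these windows of Aldh1a1, Aldh1a7 and Anxa1. The Anxa1 window held neither CCAAT nor ATGCAAAT. These are matches of letters only, and the motifs were chosen with the sequences in view.

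The level of Aldh1a1 itself chose the groups and is given as a description. Among WT cells with Aldh1a1 the lowest, median and highest levels were 22.9, 923 and 8612 CPM. Among 3xTg cells with Aldh1a1 they were 11.6, 2142 and 8130 CPM. The 3xTg levels had a gap, with 2 cells at 11.6 and 17.7 CPM and the next at 1223 CPM, whereas the 3 lowest WT cells, at 22.9, 68.3 and 143 CPM, led into the rest. The counts just inside the threshold were 16, 26, 27 and 43, and those just outside it were 1.25, 2, 2, 2 and 4, so no cell lay between 4 and 16. The share of cells with Aldh1a1 was 74.3% in WT (exact Clopper-Pearson interval, 56.7% to 87.5%) and 57.6% in 3xTg (39.2% to 74.5%). These intervals overlap and cover counting error only.

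The study retained only cells positive for the DA neuron markers Th, Slc6a3 and Slc18a2, so that their detection in every group follows from that selection. Th, the rate-limiting enzyme of dopamine synthesis, and Slc6a3, the dopamine transporter, were counted in all 63 cells. Th had a median of 6644 CPM (2313 to 11074) in WT cells with Aldh1a1 and 4582 CPM (2297 to 8994) in those without. In 3xTg it had a median of 9717 CPM (949 to 16862) with and 8458 CPM (4906 to 12873) without, so the groups overlapped in both genotypes. The study also dropped cells positive for Pvalb (GABA neurons), Tmem119 and P2ry12 (microglia) and Aldh1l1 (astrocytes). Of the 63 grouped cells, Pvalb was counted in 3 (2 WT with and 1 3xTg without, at most 41.9 counts), Tmem119 in 1 (WT with, 356 counts), P2ry12 in 6 (at most 277 counts) and Aldh1l1 in none. Summed astrocyte markers had medians of 255 (with) and 183 CPM (without) in WT and 313 and 167 CPM in 3xTg, with 1 WT cell with Aldh1a1 at 2679 CPM. The summed endothelial markers reached at most 1.36 CPM. Summed microglial markers had medians of 51.3 (with) and 70.1 CPM (without) in WT and 36.6 and 33.1 CPM in 3xTg, with 1 WT cell with Aldh1a1 at 3854 CPM. Without the 7 cells that had 10 counts or more of Pvalb, Tmem119, P2ry12 or Aldh1l1 (leaving 23 and 7 cells in WT and 17 and 9 in 3xTg), 221 genes were higher and 406 lower in both genotypes, in place of 240 and 325 with all cells. Without them, differences of under 1 in size were found for Adh5 in WT (-0.64) and for Maob (0.63), Pink1 (0.95) and Junb (-0.73) in 3xTg, genes described below. The part of the summed astrocyte and microglial levels in the differences was not tested beyond this.

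Cells without Aldh1a1 had the higher median number of genes detected. In WT, cells with Aldh1a1 had a median of 6427.5 genes with a count (3886 to 10146) and cells without had 8077 (6340 to 9155). In 3xTg the medians were 8622 (3800 to 10527) and 9345.5 (4827 to 10422). The ranges overlapped in both genotypes. Total counts ran from 492505 to 1678624 per cell. With each cell thinned to 700448 counts, which left out 7 shallower cells, the medians were 6317 and 7538 genes in WT and 7810 and 8792.5 in 3xTg, in the same order. Differences of the mean log2 level were accordingly below 0 for 71% of genes in WT and 63.9% in 3xTg, with medians of -0.52 and -0.25.

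**Figure D1:**
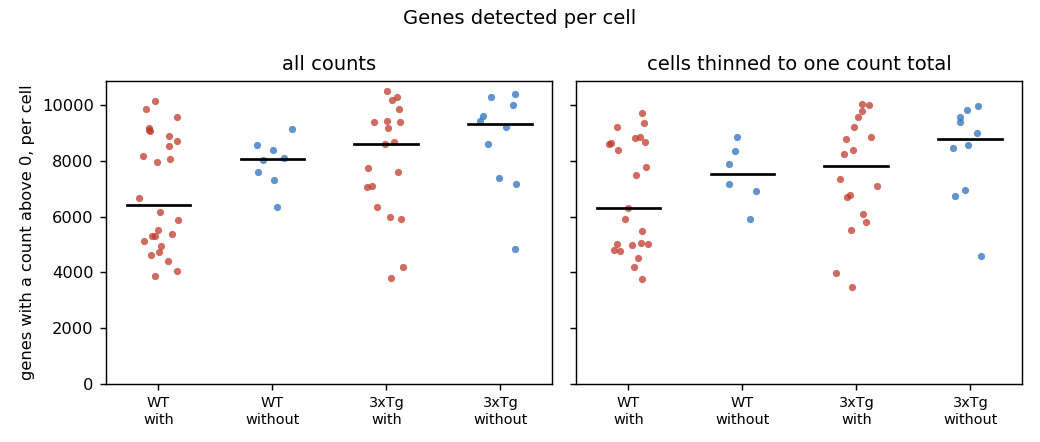
Number of genes with a count above 0 in each cell (vertical axis), by genotype and Aldh1a1 group, from all counts (left) and after thinning each cell to 700448 counts (right). Points are cells and bars are medians. The cells without Aldh1a1 have the higher median in both genotypes (8077 against 6427.5 in WT, 9345.5 against 8622 in 3xTg), and the ranges overlap.

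Across the 10847 genes compared, the differences in the 2 genotypes were nearly unrelated. Pearson's r between them was 0.11 and Spearman's rho 0.10 over genes, which are not independent, and 55.2% of genes had the same sign. In WT, 1587 genes (14.6%) were higher by 1 or more in cells with Aldh1a1 and 1732 (16%) were lower. In 3xTg, 1055 (9.73%) were higher and 1319 (12.2%) were lower. In both genotypes, 240 genes (2.21%) were higher and 325 (3%) were lower, and 405 genes passed 1 in opposite directions. Of the genes higher in WT, 15.1% were also higher in 3xTg, and of those higher in 3xTg, 22.7% were also higher in WT. The shares for lower genes were 18.8% and 24.6%. A small set stood far from the cloud: 16 genes were higher by 2 or more in both genotypes, and only Aldh1a7 and Anxa1 were higher by 4 or more, while 24 were lower by 2 or more and none was lower by 3 or more. The filter bears on this contrast, because fewer of the grouped cells were without Aldh1a1 than with it. A gene limited to the cells without was therefore less easily kept than a gene limited to the cells with. With no filter, 99 genes were higher and 634 lower by 1 or more in both genotypes, in place of 240 and 325.

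**Figure D2:**
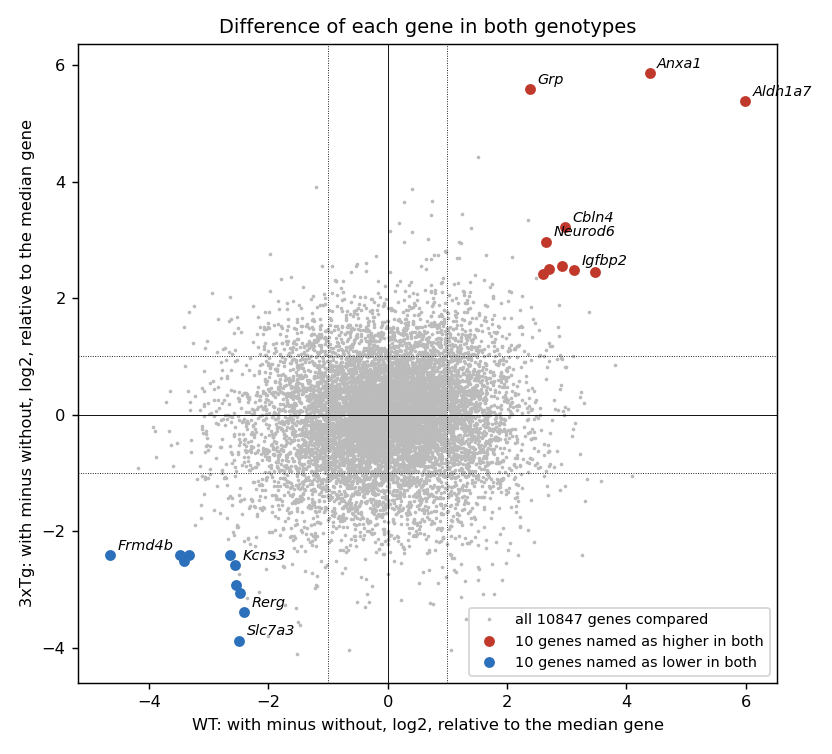
Difference of each of 10847 genes between cells with and without Aldh1a1, log2 and relative to the median gene, in WT (horizontal) and 3xTg (vertical); dotted lines mark 1 and -1. Aldh1a7 (5.99 and 5.38), Anxa1 (4.39 and 5.87) and Grp (2.38 and 5.58) lie far above the cloud, and the 10 genes named as lower lie between -4.65 and -2.40 on both axes.

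Aldh1a7 followed Aldh1a1 most closely. It was counted in 26 of 26 WT cells with Aldh1a1, at 1.59, 38.9 and 774 CPM for the lowest, median and highest cell, and in 0 of 8 without. In 3xTg it was counted in 18 of 19 cells with, at 0, 40.1 and 343 CPM, and in 0 of 10 without. In WT it was the only gene of the 10847 whose groups did not overlap, and in 3xTg no gene had groups apart. Its mean log2 level with Aldh1a1 was 5.47 ± 2.11 (SD over 26 cells) in WT and 5.13 ± 1.96 (SD over 19 cells) in 3xTg, and the relative difference was 5.99 in WT and 5.38 in 3xTg. Against a floor of 3 counts over all cells without, its summed level was at least 311-fold higher in WT and at least 264-fold higher in 3xTg. Folds against this floor, here and below, cover counting only and not the spread between cells. Among cells with Aldh1a1 its level followed that of Aldh1a1, with a Spearman's rho of 0.79 over 26 WT cells and 0.86 over 19 3xTg cells, each pair of values taken from 1 library. The Aldh1a7 count was a median of 4.34% of the Aldh1a1 count in WT (0.35% to 38.5%) and 1.66% in 3xTg (0% to 6.25%). The ratio thus varied between cells, and what part of the Aldh1a7 count came from Aldh1a1 was not tested. Of the cells set aside, 1 broke the pairing: 3xTg cell 90 had an Aldh1a1 count of 1.25 and an Aldh1a7 count of 36.3 (30.3 CPM).

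**Figure D3:**
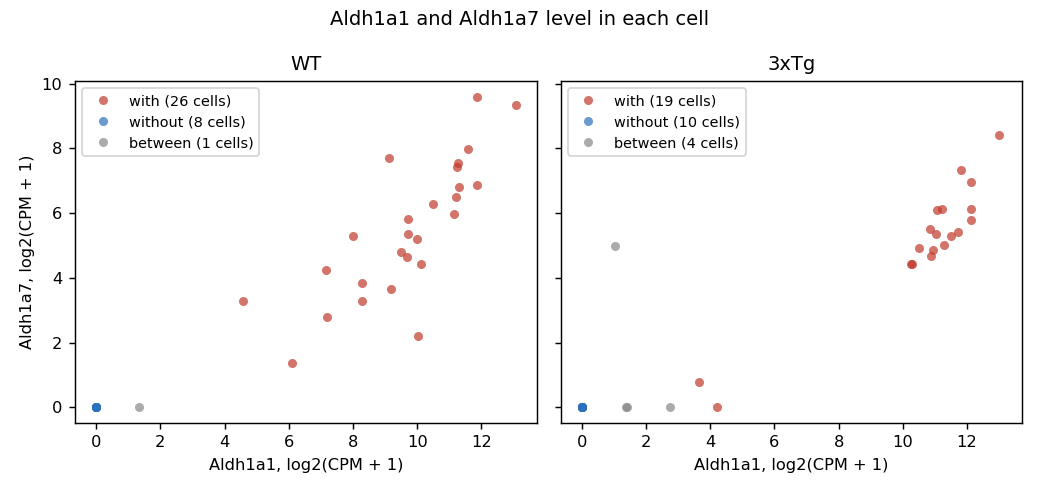
Aldh1a1 (horizontal) and Aldh1a7 (vertical) level in each of 68 cells, log2(CPM + 1), for WT (left) and 3xTg (right), colored by Aldh1a1 group. The levels climb together among the 26 WT and 19 3xTg cells with Aldh1a1, the 18 cells without sit at 0 on both axes, and 1 of the 4 3xTg cells set aside has Aldh1a7 with almost no Aldh1a1.

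Anxa1 was nearly limited to cells with Aldh1a1, but only part of those cells had it. In WT it was counted in 14 of 26 cells with Aldh1a1, at 0, 1.32 and 2528 CPM, and in 0 of 8 cells without, for which the exact interval reaches 36.9% of cells. In 3xTg it was counted in 14 of 19 cells with, at 0, 142 and 3427 CPM, and in 1 of 10 without, at 10.5 CPM in cell 41. The mean log2 level with Aldh1a1 was 3.87 ± 4.59 (SD over 26 cells) in WT and 5.97 ± 4.32 (SD over 19 cells) in 3xTg, and the relative differences were 4.39 and 5.87. The summed WT level was at least 1017-fold higher with Aldh1a1. It reached 10 counts or more in 10 of the 26 WT and 13 of the 19 3xTg cells with Aldh1a1. One 3xTg cell that was set aside, cell 43 with an Aldh1a1 count of 4, had 139 Anxa1 counts (201 CPM).

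Other genes of this stretch of chromosome 19 were examined within 1000000 bases of Aldh1a1. Tmc1, a channel subunit known from hair cells, lies 139996 bases away and had relative differences of 0.22 and 0.49. Zfand5 (-1.13 and -0.18) and Gda (-0.52 and 0.08) lie further off, 628816 and 747845 bases away. A pair of non-coding transcripts between Anxa1 and Aldh1a1, E030003E18Rik and C730002L08Rik, had too few cells to be kept. E030003E18Rik was counted in 4 WT and 3 3xTg cells and C730002L08Rik in 5 WT and 3 3xTg cells, all of them with Aldh1a1, and both in 0 of 18 cells without. They lie on opposite strands and overlap, and whether strand was used in counting is not given in the sources used here.

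Of the marks of VTA neurons, 4 were higher with Aldh1a1 in both genotypes, namely Grp (gastrin-releasing peptide), Neurod6 (a neuronal transcription factor), Cbln4 (a secreted synapse organizer) and Lpl (lipoprotein lipase). Grp was counted in 16 of 26 WT cells with Aldh1a1 (0, 53.6 and 1488 CPM) and 3 of 8 without (0, 0 and 203 CPM). In 3xTg it was counted in 16 of 19 cells with (0, 220 and 1063 CPM) and 2 of 10 without (0, 0 and 113 CPM). Its groups overlapped. The mean log2 level was 4.20 ± 3.89 with and 2.35 ± 3.39 without in WT, a difference within the SD of the cells, and 6.52 ± 3.14 with and 1.18 ± 2.53 without in 3xTg, and the relative differences were 2.38 and 5.58.

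Neurod6 was counted in 16 of 26 WT cells with Aldh1a1 and 2 of 8 without, and in 11 of 19 and 1 of 10 3xTg cells. Its highest levels were 311 CPM with and 158 CPM without in WT, and 232 and 9.29 CPM in 3xTg, and its relative differences were 2.66 and 2.97. Most cells without therefore had none, and 1 WT cell without, cell 65, carried 99.5% of the Neurod6 counts of its group. Cbln4 was counted in 13 of 26 and 1 of 8 WT cells, and in 8 of 19 and 0 of 10 3xTg cells. Its relative differences were 2.97 and 3.22, the summed 3xTg level was at least 435-fold higher, and the single WT cell without that had Cbln4 was again cell 65 (202 CPM). Lpl was present in every grouped cell and differed by degree, with medians of 190 and 74.3 CPM in WT and 242 and 60.1 CPM in 3xTg (relative differences 1.14 and 1.71). Lpl had a WT difference of 0.89 without WT cell 1 and -0.17 in the second run of label numbers.

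Thinning the cells left the order of these shares as it was. Anxa1 was then counted in 13 of 23 and 0 of 6 WT cells and 13 of 18 and 1 of 10 3xTg cells, Grp in 14 and 3 of these WT cells and 15 and 2 of these 3xTg cells, Neurod6 in 14 and 0 and in 10 and 1, and Cbln4 in 12 and 0 and in 8 and 0. WT cell 65, with 106 Neurod6 and 135 Cbln4 counts, was too shallow to be thinned (669107 counts). The 0 of 6 for these 2 genes therefore leaves out the cell without that carried them.

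The same cells tended to carry several of these genes. Counting Aldh1a7, Anxa1, Grp, Neurod6 and Cbln4, which were picked after their values were seen, all 5 reached 10 counts in 6 of 26 WT and 6 of 19 3xTg cells with Aldh1a1. No cell without Aldh1a1 had more than 2 of the 5 in WT or more than 1 in 3xTg, and 4 of 8 and 7 of 10 of them had none. The cells with Aldh1a1 were also divided, since 9 of the 26 WT and 4 of the 19 3xTg cells had 1 of the 5. Grp reached 10 counts in 9 of the 10 WT and 12 of the 13 3xTg cells with both Aldh1a1 and Anxa1. Outside them it did so in 5 of 16 WT and 4 of 6 3xTg cells with Aldh1a1. The number of genes detected also differed between these cells, without a steady order. In WT cells with Aldh1a1 it was 5140 in the 1 cell with none of the 5, and its median was 5367 in the 9 cells with 1 of the 5, 5020 in the 4 with 2, 8083 in the 3 with 3, 9086 in the 3 with 4 and 8555 in the 6 with all 5. In 3xTg it was 8515.5 in the 4 cells with 1, 6701 in the 8 with 3, 8695 in the 1 with 4 and 9828.5 in the 6 with all 5. The part of the number of genes detected in the sharing was not tested.

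Of 15 listed transcription factors of DA neurons, 10 were kept. In both genotypes 1 was higher (Ebf1) and 1 lower (Lmx1a), beside 2.21% and 3% of all genes. The list medians were -0.10 in WT and 0.21 in 3xTg. Lmx1a, which specifies DA neurons, was lower with Aldh1a1: it had 0, 1.26 and 438 CPM in WT cells with and 0, 6.67 and 68.2 CPM in those without (relative difference -1.20). In 3xTg it had 0, 1.10 and 137 CPM with and 0.42, 57.7 and 155 CPM without (-2.92), and it was counted in all 10 cells without. The mean log2 level in 3xTg was 1.87 ± 2.22 with and 5.03 ± 2.45 without. The WT difference of Lmx1a was -0.82 without WT cell 1 and -0.14 from summed counts, and the 3xTg difference was -0.67 in the second run of label numbers. Ebf1, a helix-loop-helix factor, was higher (1.29 and 1.76) but was counted in only 7 of 26 and 2 of 8 WT cells and 7 of 19 and 2 of 10 3xTg cells. The differences of Ebf1 were -0.11 in the first WT run of label numbers and -0.24 in the second 3xTg run. The levels of Nr4a2 (-0.24 and -0.24), En1 (0.03 and 0.27) and Foxa2 (0.08 and 0.56), which maintain DA neuron identity, differed by less than 1 in both.

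Lypd1, which encodes a membrane protein that modulates nicotinic receptors, was counted in 4 of 26 WT cells with Aldh1a1 and 4 of 8 without, and in 2 of 19 and 7 of 10 3xTg cells. Its highest level was 322 CPM with and 272 CPM without in WT, and 7.88 and 153 CPM in 3xTg, and its relative differences were -1.72 and -3.26. The 2 3xTg cells with Aldh1a1 that had Lypd1, cells 89 and 91, had the lowest Aldh1a1 levels of their group (11.6 and 17.7 CPM). They also had its highest Lmx1a levels (97.7 and 137 CPM). Lypd1 had -0.88 in WT without WT cell 94 and 1.84 in the second WT run of label numbers. Kcns3, a silent potassium channel subunit, was counted in 12 of 26 and 7 of 8 WT cells and in 8 of 19 and 8 of 10 3xTg cells, with medians of 0 and 102 CPM in WT and 0 and 45.7 CPM in 3xTg (-2.55 and -2.59). The highest Kcns3 levels, 518 CPM in WT and 658 CPM in 3xTg, were in cells with Aldh1a1, and from summed counts the differences were -0.59 and -0.44, under 1 in both genotypes. Ndnf, a secreted neurotrophic factor, was counted in 7 of 26 and 5 of 8 WT cells and 4 of 19 and 6 of 10 3xTg cells (-1.76 and -1.94). The highest Ndnf levels were in cells with Aldh1a1, at 578 CPM against 279 CPM without in WT and 122 against 77 CPM in 3xTg. The WT difference of Ndnf was -1.04 without WT cell 1, -0.78 from summed counts and 1.0 in the second run of label numbers. Kcns3 and Ndnf are listed as ventral-tier markers, and here both had lower mean log2 levels in the cells with Aldh1a1.

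**Figure D4:**
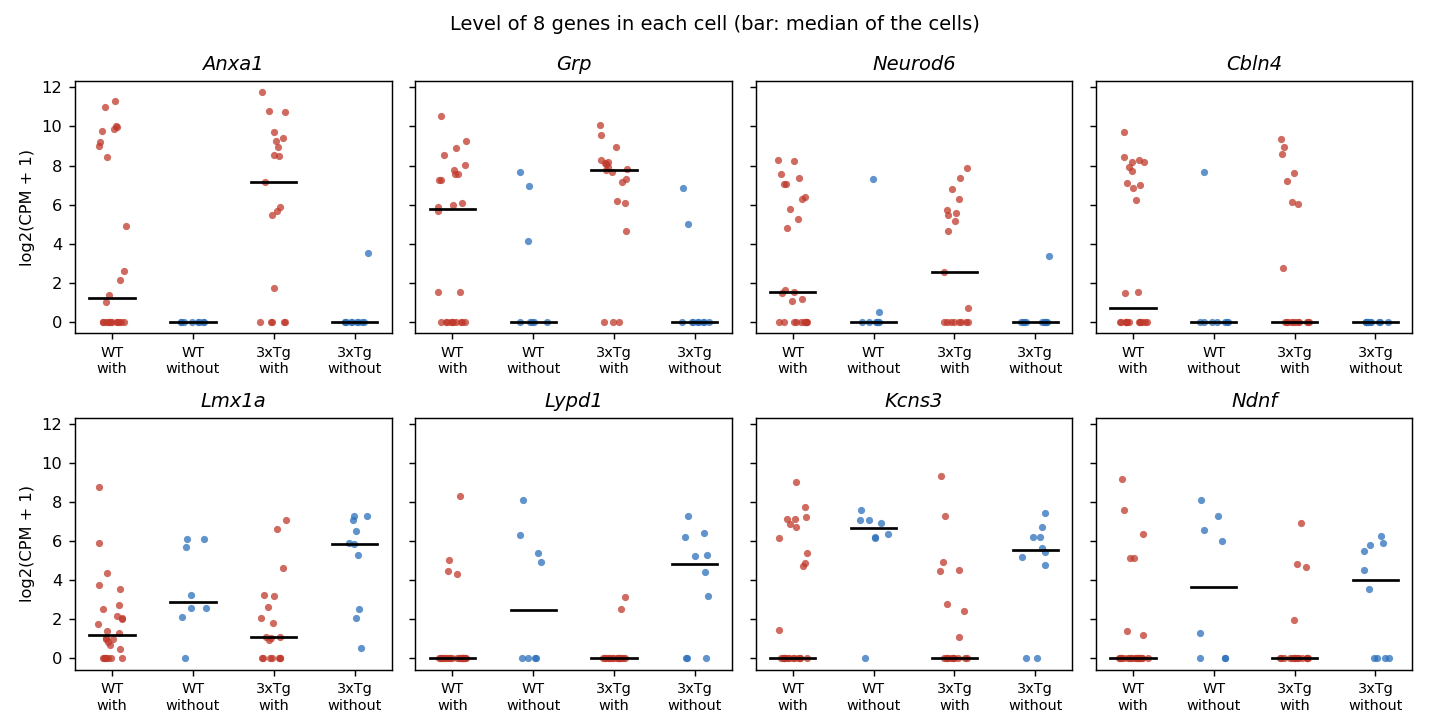
Level of 8 genes in each cell, log2(CPM + 1), by genotype and Aldh1a1 group; bars are medians over cells. Anxa1, Grp, Neurod6 and Cbln4 are at or near 0 in most of the 18 cells without Aldh1a1, whereas Lmx1a, Lypd1, Kcns3 and Ndnf have their higher medians in those cells.

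As lists, the subtype markers are set beside all genes, of which 2.21% were higher and 3% lower in both genotypes. Of 12 ventral-tier markers, 8 were kept, 2 were higher in both genotypes (Anxa1 and Aldh1a7) and 2 were lower (Ndnf and Kcns3), with medians of 0.10 in WT and 0.53 in 3xTg beside 0 for all genes. Of 21 dorsal and VTA markers, 11 were kept, 4 were higher (Neurod6, Grp, Lpl and Cbln4) and Lypd1 was lower, with medians of 0.16 and 0.79. Putting genes at 0 in a group at their bound left these medians as they were.

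Some markers fell below the 25% filter. Sox6, a ventral-tier transcription factor, was counted in 3 of 26 WT cells with and 2 of 8 without, and in 4 of 19 and 6 of 10 3xTg cells. Otx2, a transcription factor of ventral VTA neurons, was counted in 6 of 26 and 1 of 8 WT cells and 8 of 19 and 0 of 10 3xTg cells. Slc17a6, the vesicular glutamate transporter VGLUT2, was counted in 6 of 26 WT and 7 of 19 3xTg cells with Aldh1a1 and in none of the 8 and 10 without. With so few cells, the exact intervals for the groups at 0 reach 36.9% and 30.8%, and 1 WT cell held 79% of the Slc17a6 counts. Calb1, a calcium buffer of dorsal-tier and VTA neurons, had medians of 827 and 694 CPM in WT and 1468 and 1512 CPM in 3xTg (0.64 and -0.20), and Lmo3, a transcriptional cofactor, differed by 0.63 and 2.50. From summed counts the 3xTg difference of Lmo3 was 0.64, and its WT difference was -0.44 in thinned cells. In the first runs of label numbers Calb1 had -1.07 in WT and 0.13 in 3xTg.

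The remaining named genes were those with the largest smaller-of-both difference among genes whose share of cells with a count and whose summed counts went the same way in both genotypes. On the higher side, with WT and 3xTg relative differences, they were Kcnab1, a potassium channel beta subunit (3.48 and 2.45), Igfbp2, an insulin-like growth factor binding protein (3.13 and 2.48), Endod1 (2.92 and 2.56), Atp1b2, a sodium pump beta subunit (2.70 and 2.50), and Nucb1, a calcium-binding Golgi protein (2.61 and 2.42). Igfbp2 was counted in 11 of 26 WT and 7 of 19 3xTg cells with Aldh1a1 and in none of the 18 without. Its summed level was thus at least 152-fold and 145-fold higher. The exact intervals for the groups at 0 reach 36.9% of cells in WT and 30.8% in 3xTg. Among cells with Aldh1a1, 1 cell held 32.1% of the Igfbp2 counts in WT and 43.6% in 3xTg. Igfbp2 passed the filter through the cells with Aldh1a1 alone. A gene limited to a like share of the fewer cells without would not have been kept. Kcnab1 was counted in 14 of 26 and 1 of 8 WT cells and in 13 of 19 and 4 of 10 3xTg cells. The 3xTg difference of Nucb1 was 0.31 from summed counts and 0.56 in the second run of label numbers, where Atp1b2 had -0.00 in WT and -1.08 in 3xTg.

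On the lower side were Frmd4b (-4.65 and -2.41), Xpo1, a nuclear exporter (-3.48 and -2.41), Chfr, a mitotic checkpoint ubiquitin ligase (-3.41 and -2.52), Fbxo18, a DNA helicase (-3.33 and -2.42), Unc80, a subunit of the sodium leak channel complex (-2.64 and -2.41), Tex10 (-2.55 and -2.92), Slc7a3, a cationic amino acid transporter (-2.49 and -3.88), Znf512b (-2.47 and -3.07) and Rerg, a small GTPase (-2.40 and -3.40), together with Kcns3. These genes were counted in most cells without Aldh1a1 and in a smaller share of cells with it. Their selection required the smaller share, so this pattern is a description and not a further result. Unc80 was counted in all 8 WT and all 10 3xTg cells without, and in 19 of 26 and 15 of 19 with. Frmd4b ranged from 175 to 480 CPM in WT cells without and from 0 to 768 CPM in those with, where 11 of 26 had a count. With the number of genes detected as a straight-line term, the differences of the 10 ran from -4.67 to -1.58 in WT and from -4.14 to -2.15 in 3xTg. Among cells with at least the median of 8056.5 genes (11 and 4 in WT, 10 and 7 in 3xTg) Slc7a3 in WT turned to 0.30 and Xpo1 in 3xTg to 0.03, while Kcns3 in WT (-0.89) and Unc80 in 3xTg (-0.53) were under 1 in size. The 8 genes other than Slc7a3 and Xpo1 held their sign in both genotypes among these cells. From summed counts Znf512b in WT (-0.82) and Xpo1 in 3xTg (-0.89) were under 1, and in the second runs of label numbers Rerg had 0.54 in WT and Frmd4b had -0.26 in 3xTg.

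The other aldehyde and retinoid enzymes are given next. Of the 18 other aldehyde dehydrogenases, 10 were kept, with medians of -0.09 in WT and -0.09 in 3xTg. Aldh1a7 was the 1 higher, and Aldh6a1, a mitochondrial enzyme of valine breakdown, was the 1 lower (-2.49 and -1.38), beside 2.21% of all genes higher and 3% lower in both genotypes. Among cells with at least the median number of genes Aldh6a1 had 0.43 and -0.45, from summed counts -0.66 and -0.42, and in the second runs 0.21 and 0.44. Aldh2, the mitochondrial enzyme that also clears dopamine aldehyde, had -1.86 in WT and 0.79 in 3xTg. Aldh1a2 and Aldh1a3, the other retinaldehyde dehydrogenases, were counted in too few cells to be kept.

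Among 26 genes of the retinoid pathway, 11 were kept, none was higher in both genotypes and Adh5, an alcohol dehydrogenase that handles formaldehyde, was lower (-1.05 and -2.62), the 1 member of 11 beside 3% of all genes. The WT difference of Adh5 was -0.44 without WT cell 1 and -1.59 without WT cell 65, and it was past 1 in 8 of 16 alternatives. Its 3xTg difference was -0.94 from summed counts. The list medians were 0.31 and -0.17. Several members had opposite signs, among them Dhrs3, a retinaldehyde reductase (1.93 and -1.09), and Rxrb, a retinoid X receptor (1.48 and -1.51). The receptor Rara differed by 0.19 and 0.35.

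Genes of GABA synthesis, packaging and uptake were 9, of which 5 were kept. Maob, monoamine oxidase B, was higher in both (1.39 and 1.28) and is also the 1 gene of dopamine handling that was, beside 2.21% of all genes. It was counted in 11 of 26 and 2 of 8 WT cells and in 11 of 19 and 4 of 10 3xTg cells, and 1 cell without held 55.9% of that group's counts in WT and 54.8% in 3xTg. Maob had a WT difference of 2.18 without WT cell 10 and a 3xTg difference of 0.97 without 3xTg cell 39. From summed counts they were 0.44 and 0.65, and the call held in 11 (WT) and 9 (3xTg) of 15 alternatives. Gad2, which makes GABA from glutamate, was counted in all 63 cells and had -0.24 and 0.07. Gad1 was counted in 4 of 26 and 2 of 8 WT cells and in 2 of 19 and 2 of 10 3xTg cells.

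Of 14 genes of dopamine synthesis and handling, 13 were kept, 8 were above the median gene in both genotypes and none was below it in both. Over all 10847 genes, 27.6% were above the median gene in both and 27.6% below it in both. The list medians were 0.85 in WT and 0.21 in 3xTg. Th had relative differences of 0.86 and 0.07, Slc6a3 had 0.69 and -0.04, Slc18a2 (the vesicular monoamine transporter) had 0.29 and 0.14, and Gch1, which makes the cofactor of tyrosine hydroxylase, had 0.95 and 1.65. None of these 4 reached 1 in both genotypes. The medians taken off were -0.52 in WT and -0.25 in 3xTg. Before they were taken off, the mean log2 level of Slc18a2 was lower with Aldh1a1 in both genotypes. Those of Th and Slc6a3 were lower in 3xTg.

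Of 33 listed ion channels that pace DA neurons and their partners, 25 were kept. None passed 1 in the same direction in both genotypes, which 2.21% of all genes did upward and 3% downward, so that a count of 0 in 25 is near the background. Of these 25, 4 were above the median gene in both and 11 below it in both (27.6% of all genes in either case), with list medians of -0.43 and -0.29. Kcnn3, the SK3 potassium channel, had medians of 12.5 and 43.9 CPM in WT and 43.4 and 36.3 CPM in 3xTg (-1.45 and -0.12). Kcnd3, the Kv4.3 channel, had -0.64 and -1.20, and Kcnj6, the GIRK2 channel often used as a ventral-tier mark, had -1.92 and -0.55.

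**Figure D5:**
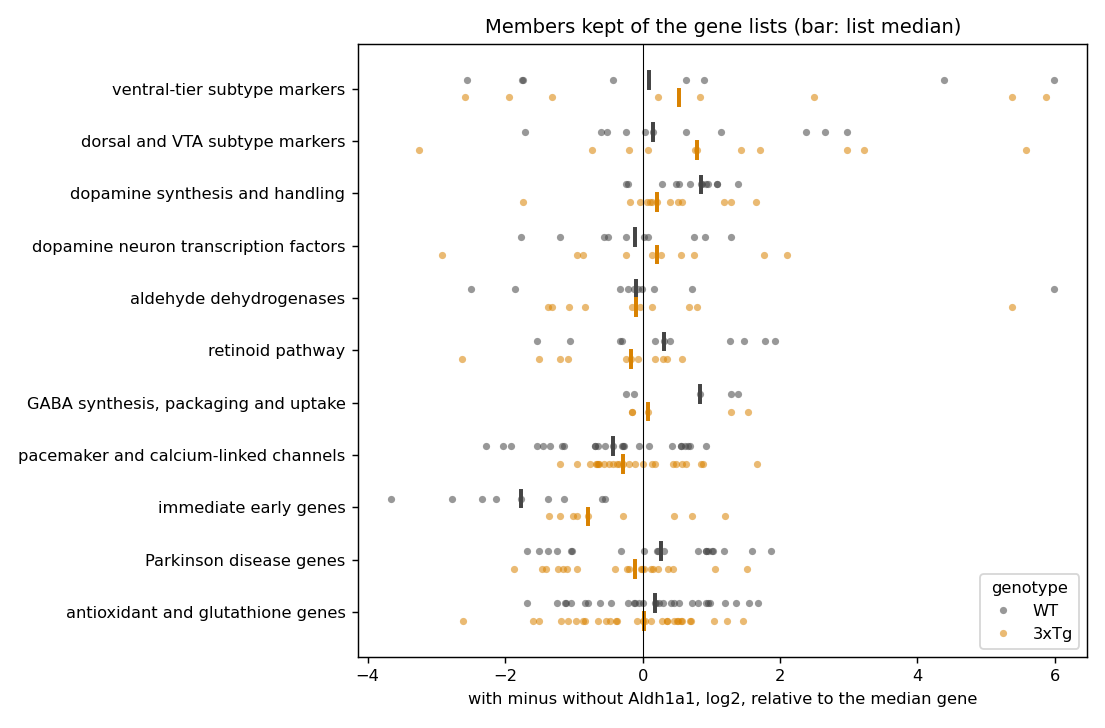
Relative difference (horizontal, log2) of each kept member of 11 gene lists between cells with and without Aldh1a1, in WT and 3xTg; points are genes and bars are list medians. Apart from the WT immediate early genes the medians of these 11 lists lie within 1 of 0, and the immediate early genes sit lowest (-1.77 in WT and -0.79 in 3xTg).

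Immediate early genes are switched on in neurons with activity or stress. Of 16, 9 were kept. Of these, 3 were lower by 1 or more in both genotypes, beside 3% of all genes, 6 were below the median gene in both (27.6% of all genes), 3 had mixed signs and none was above it in both. The list medians were -1.77 in WT and -0.79 in 3xTg. Fos had medians of 598 and 1453 CPM in WT and 509 and 1595 CPM in 3xTg (-1.15 and -1.37), Junb had -2.78 and -1.01, and Egr1 had -2.13 and -1.20. Summed over the list, the median level was 1701 CPM with and 3523 CPM without in WT, and 2086 and 3093 CPM in 3xTg, with wide overlap. From summed counts, which weight the cells of highest level, the 3xTg list median turned to 0.53, with Junb at 0.88 and Egr1 at 0.54. Within the second run of label numbers, which holds only 2 WT cells without, the WT list median turned to 1.33, with Fos at 0.52 and Egr1 at 1.67. The difference of Fos was -0.89 without WT cell 67 and -0.87 without 3xTg cell 78, and without 3xTg cell 31 Junb had -0.73 and Egr1 -0.89 in 3xTg. Summed counts gave Fos -0.73 in WT and -0.57 in 3xTg, and Junb -0.17 in WT.

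All 20 genes of inherited Parkinson disease were kept, with medians of 0.27 and -0.12, and those past 1 in both genotypes are set beside 2.21% of all genes higher and 3% lower. Pink1, a mitochondrial kinase, was higher (1.87 and 1.51), although its WT difference was -0.25 from summed counts and its 3xTg difference 0.29 in the second run of label numbers. Park2 (parkin, the ubiquitin ligase that acts with Pink1) was lower (-1.51 and -1.47), as was the mitochondrial protease Htra2 (-1.68 and -1.16). Without 3xTg cell 81 the 3xTg differences were -1.0 for Park2, just short of 1 in size, and -0.75 for Htra2. Among cells with at least the median number of genes Park2 had -0.31 and -0.80 and Htra2 -0.20 and -0.41, all under 1.

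Of 36 antioxidant and glutathione genes, 30 were kept, none was higher in both genotypes, and Gpx3 (a glutathione peroxidase, -1.25 and -1.51) and Akr1b3 (aldose reductase, -1.12 and -1.60) were lower, beside 2.21% of all genes higher and 3% lower in both, with list medians of 0.18 and 0.02. The WT difference of Gpx3 was -0.81 without WT cell 69, -1.89 without WT cell 65 and 0.21 from summed counts, and its 3xTg difference was -0.97 without 3xTg cell 81 and 1.57 in the first run of label numbers. Akr1b3 had -0.84 in WT without WT cell 94, and -0.35 and -0.56 from summed counts. Of 26 neuropeptides and receptors, 10 were kept and Grp alone was higher in both. Of 26 axon guidance and adhesion genes, 20 were kept and none passed 1 in the same direction in both. No member passed 1 in the same direction in both genotypes among the astrocyte (2 of 7 kept), microglial (4 of 8), GABA neuron (1 of 4) and glutamate neuron markers (1 of 3) or the sex-linked genes (5 of 6), and no endothelial marker of 5 was kept. The list medians were 1.40 in WT and 0.21 in 3xTg for the astrocyte markers, and 1.26 and -0.64 for the microglial markers. Summed oligodendrocyte markers had medians of 54.8 (with) and 133 CPM (without) in WT and of 35.2 and 24.7 CPM in 3xTg, and their part in these differences was not tested.

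The label numbers of the cells form runs, 3 in WT and 2 in 3xTg, and the groups were spread over them. In the first runs, 12 WT cells were with and 4 without, and 12 3xTg cells were with and 6 without. In the second runs the numbers were 13 and 2 in WT and 7 and 4 in 3xTg, and the third WT run had 1 and 2. Aldh1a7, Anxa1, Cbln4, Neurod6, Endod1, Igfbp2, Kcnab1 and Grp were higher by 1 or more within each of the first and second runs of both genotypes, whereas Atp1b2 was not (-0.00 in WT and -1.08 in 3xTg in the second runs). These genes were named for their differences over the same cells, so the runs are no independent repeat. What the runs stand for is not given in the sources used here.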

How the data were processed

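Patch-seq libraries of single VTA DA neurons (NEBNext Single Cell/Low Input kit, poly-A capture, 28 PCR cycles) were sequenced in paired 100-base reads. The authors trimmed 5 bases from each end, aligned to mm10 with RefSeq genes in Strand NGS at 90% identity or more, removed duplicates, and deposited an estimated count per gene and cell, which need not be whole, beside log2 values normalized by DESeq2. The table holds 36172 genes, of which 17940 had a count.

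Cells were grouped by the Aldh1a1 estimated count (10 or more, or 0). Counts were divided by the cell's total (492505 to 1678624) to give CPM, and differences of mean log2(CPM + 1) were taken with numpy 2.4.6 and pandas 2.3.3 (Python 3.11.15) in each genotype. Levels at depths near 1 count are imprecise, and 3 counts over a group of cells was used as the floor of a group at 0. Named genes were Aldh1a1, the 10 higher and 10 lower genes with the largest smaller-of-both relative difference among those whose share of cells and summed counts had the same sign in both genotypes, and members of 20 gene lists past 1 in both, with 8 subtype markers always described. Members and lists were chosen with earlier results of these data known. The calculations were checked on simulated data. Alternatives were other scalings (size factors, edgeR 4.0.16 TMM, the deposited log2 values), pseudocounts, filters, groups and cells. Intervals cover counting error at 95% only. Transgene expression was not analysed here. Sequences are from GENCODE M21 and RefSeq. Some listed genes and one transgene allele are not reported here.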

Additional observations from a re-analysis of the deposited data

Results flagged for a closer look

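Among 38 sets of values over the 8 WT or 10 3xTg cells without Aldh1a1, 12 had 1 cell that stood apart from the rest by Dixon's criterion, which chance alone gives in about 1 in 20 sets of normally distributed values. That rate is no guide here, because the named genes were chosen for being near 0 or near ubiquitous in these cells, so that a lone cell with or without a count stands apart by construction. Values are log2(CPM + 1). In WT, cell 65 was high for Cbln4 (7.66) and Neurod6 (7.32), cell 94 for Endod1 (4.93) and cell 1 for Kcnab1 (6.48). Cell 15 was at 0 for Kcns3, cell 95 at 0 for Slc7a3, and cell 94 at 0 for Znf512b and Fbxo18, genes that the other WT cells without Aldh1a1 had. In 3xTg, cell 41 was high for Anxa1 (3.53) and cell 82 for Neurod6 (3.36), while cell 53 was low for Xpo1 (1.41) and cell 81 was at 0 for Frmd4b. Without WT cell 65 the WT differences of Cbln4 and Neurod6 were 3.87 and 3.50 in place of 2.97 and 2.66.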

How the results depend on the processing

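The number of genes higher in both genotypes (240) moved with the pseudocount (577 at 0.1 and 24 at 10), with cells of at least the median genes detected (464), the first (410) and second runs (683), no filter (99), a 50% filter (159) and a fold of 2 (16). For genes lower in both (325) the values were 711 and 49 for the pseudocounts, 212 with genes detected as a term, 727 and 513 for the runs, 634 with no filter, 216 with the 50% filter and 24 at a fold of 2. Spearman's rho between genotypes (0.10) was 0.054 from summed counts, 0.035 with genes detected as a term, 0.013 in cells with at least the median genes, 0.14 with no filter and -0.0041 in the second runs. Leaving out each of the 63 cells in turn gave 219 to 293 genes higher, 300 to 371 lower and a rho of 0.06 to 0.13.

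In the second runs, signs turned in WT for Atp1b2 (-0.0012), Rerg (0.54), Ndnf (1.0), Lpl (-0.17), Lypd1 (1.84), Aldh6a1 (0.21), Fos (0.52), Egr1 (1.67) and Akr1b3 (0.13), and in 3xTg for Atp1b2 (-1.08), Ebf1 (-0.24), Aldh6a1 (0.44) and the median of all genes (0.00072). In the first runs they turned for Ebf1 in WT (-0.11) and Gpx3 in 3xTg (1.57). They also turned there for Calb1, which was under 1 in size in both genotypes (-1.07 in WT and 0.13 in 3xTg). In thinned cells the WT sign turned for Lmo3 (-0.44), likewise under 1 in WT. In cells with at least the median genes they turned for Slc7a3 (0.30), Aldh6a1 (0.43) and the median of all genes (0.0026) in WT and for Xpo1 in 3xTg (0.029). From summed counts they turned for Pink1 (-0.25) and Gpx3 (0.21) in WT and Junb (0.88), Egr1 (0.54) and the median of all genes (0.020) in 3xTg. The causes were not tested. Aldh1a7, Anxa1, Cbln4, Neurod6, Endod1, Igfbp2, Kcnab1 and Grp kept their direction and a size of 1 or more in both genotypes under every alternative that gave them a value. They were named for large differences in the same cells, so the alternatives are not independent of that choice. No paired analysis was possible because the cells' label numbers are unique and shared by no 2 groups.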

Other observations

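The 5 cells set aside resembled neither group throughout. All 5 had Th (2286 to 10112 CPM). Lmx1a reached 66.7 to 178 CPM in 3 of the 4 3xTg cells (35, 49 and 90), above the median of 1.10 CPM in 3xTg cells with Aldh1a1, and Lypd1 was counted in 2 of them (114 CPM in cell 35 and 55 CPM in cell 90). Grp was counted in WT cell 20 (106 CPM) and in 3xTg cells 35 (53.2 CPM) and 49 (112 CPM), while 3xTg cell 35 also had Cbln4 (50.8 CPM). Counting these 5 cells as cells with Aldh1a1 gave 236 genes higher and 314 lower in both genotypes.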
